A study of Brassica carinata and Brassica napus and Brassica carinata x Brassica napus with 3 samples.

Results

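Heat shock proteins and heat stress transcription factors were taken from an assembly of 157663 expressed sequences of Brassica floral buds. A sequence was a member when its best Swiss-Prot hit was named as a heat shock protein, a heat shock cognate, a heat stress transcription factor or a ClpB chaperone. Its Swiss-Prot score also had to reach 0.6 of its score in Nr, the larger protein database. This gave 343 sequences under 56 Swiss-Prot entries, of 10526 entries in all, and 48 of the 56 are Arabidopsis proteins. They comprised 20 heat stress transcription factors (HSFs), 14 small heat shock proteins, 14 HSP70 entries, 4 HSP90 entries, 3 ClpB entries (the HSP100 class) and 1 entry for STI, the organizer protein that links HSP70 and HSP90. The names matched 439 sequences, of which 91 fell under the score ratio and 5 had no Nr score. Just inside the ratio lay sequences of the 14.7 kDa protein at 0.602 and 0.625 of the Nr score, and just outside lay sequences of the same protein at 0.589 and 0.588.

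The RNA came from floral buds at the stage when flowering began, with 1 library for each of 3 groups. One was Brassica carinata (Ethiopian mustard) of the cultivar W29, another was Brassica napus (oilseed rape) of the cultivar Zhongshuang 11, and the third was an interspecific hybrid of B. carinata and B. napus. The labels name no heat treatment, no direction of the cross, no generation and no cultivar for the hybrid. Each difference therefore compares libraries, not conditions, with no replicate check and no test; the 95% intervals given below cover counting error only.

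In plants, heat shock proteins are chaperones that bind, refold or disaggregate other proteins. HSFs of class A switch on their genes, and HSP90 and HSP70 hold these factors inactive until unfolded proteins draw the chaperones away. Part of the set is made only under stress, whereas other members are made in every cell. In anthers, small heat shock proteins and HSP70 are also known to be made during pollen development without heat. The files hold no sequence letters, so members are described by name, length, score and reads.

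Counted reads came to 28.1 M in B. carinata, 27.1 M in the hybrid and 28.2 M for B. napus (M, 1000000 reads). Members took 0.428%, 0.419% and 0.371% of them in that order. At least 1 read fell on 293 member sequences in B. carinata, 301 for the hybrid and 228 in B. napus, and on 125700, 134002 and 107023 sequences of the whole assembly. All 7 floral organ identity markers were found, with summed levels of 1167, 1181 and 836 RPKM in B. carinata, the hybrid and B. napus (RPKM, reads for each kilobase of sequence and each 1000000 counted reads). The only matched root marker stood at 0, 0.172 and 0.823 RPKM. The buds differed in other markers. The 6 matched of 10 tapetum and pollen wall genes summed to 4445, 1099 and 829 RPKM. All 7 mature pollen genes were matched and summed to 27.8, 21.8 and 787 RPKM, and the 3 matched of 4 seed storage genes to 2.26, 67.4 and 236 RPKM. Chlorophyll-binding LHCB1, the 1 matched of 4 green tissue genes, had 2490, 1680 and 1760 RPKM. The part of these cell type differences in the heat shock values was not tested. In whole buds, fewer cells of a type and less RNA per cell cannot be told apart.

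HSP90-2 dominated the set in every library. This constitutive cytosolic HSP90 alone took 48.8% of member reads in B. carinata and 60.4% in the hybrid, against 57.0% in B. napus. Of the 56 entries, 36 reached 5 RPKM in some library, and 3 had no read at all. The plot of entry levels shows the 36.

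**Figure D1:**
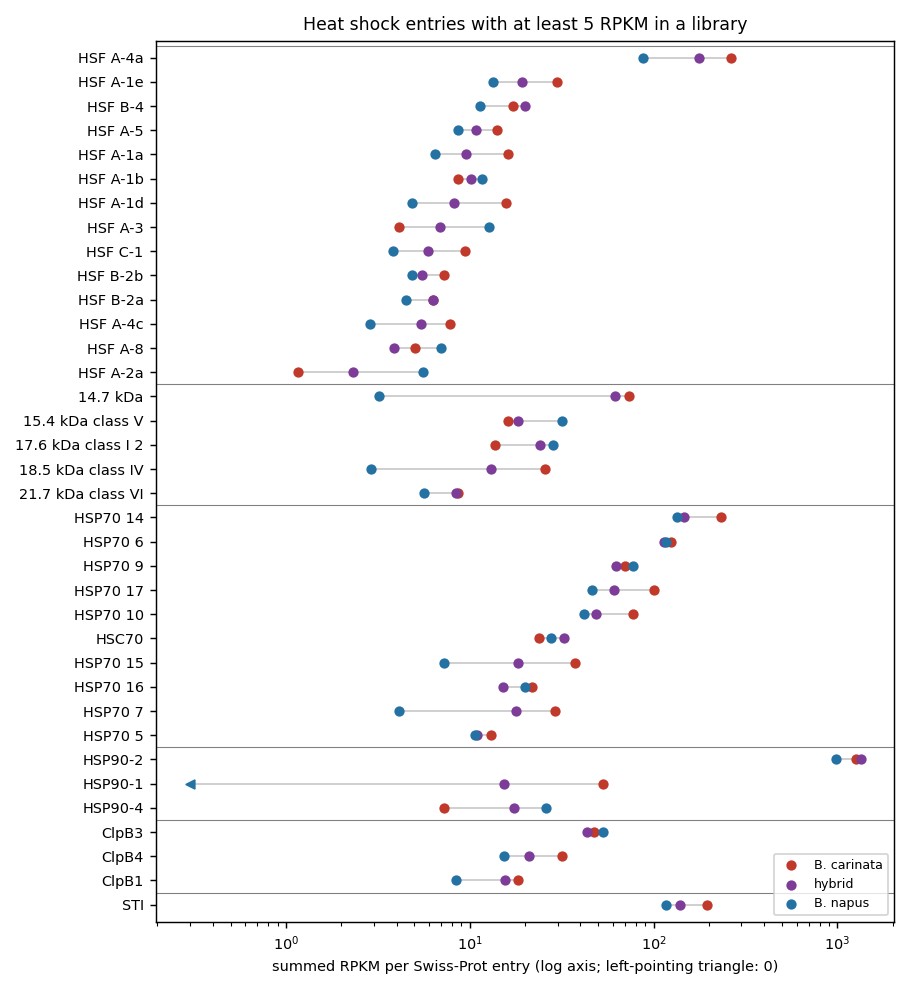
Level of the 36 heat shock entries with at least 5 RPKM in some library, as RPKM summed over the sequences of an entry (horizontal log axis), with 1 point for each of the 3 libraries; horizontal lines separate the classes in the order HSFs, small heat shock proteins, HSP70, HSP90, ClpB and STI. HSP90-2 lies between 980 and 1340 RPKM in the 3 libraries. On the sequences kept by the score ratio, HSP90-1 runs from 52.9 RPKM in B. carinata to 0 in B. napus.

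An entry was counted as apart when log2(RPKM + 1), which understates changes of low genes, differed by at least 2-fold and the higher of the libraries had 5 RPKM or more. Between the parents, 14 of 36 entries were higher in B. carinata and 4 were lower. Over all Swiss-Prot entries 18.3% were higher and 12.8% were lower. The 14 fell to 5 when only matches with a Swiss-Prot score of at least 150 were summed, and to 3 on sequences with a read in all 3 libraries. The median log2 ratio of B. carinata over B. napus was 0.60 for the heat shock entries and 0.07 for all entries. The hybrid had 1 of 35 entries above B. carinata and 1 below it, where all entries had 3.81% above and 8.44% below. Against B. napus, 6 of 36 were higher in the hybrid and 0 were lower, beside 8.51% and 8.07% of all entries. The median log2 ratios of the heat shock entries were -0.34 over B. carinata and 0.34 over B. napus, and those of all entries were -0.08 and 0.01. The 3 comparisons share libraries. Other scalings move all ratios together: TMM factors add 0.28, 0.18 and 0.46 on the log2 scale to B. carinata over B. napus, hybrid over B. carinata and hybrid over B. napus. Median-of-ratios factors add 0.28, -0.31 and -0.03.

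**Figure D2:**
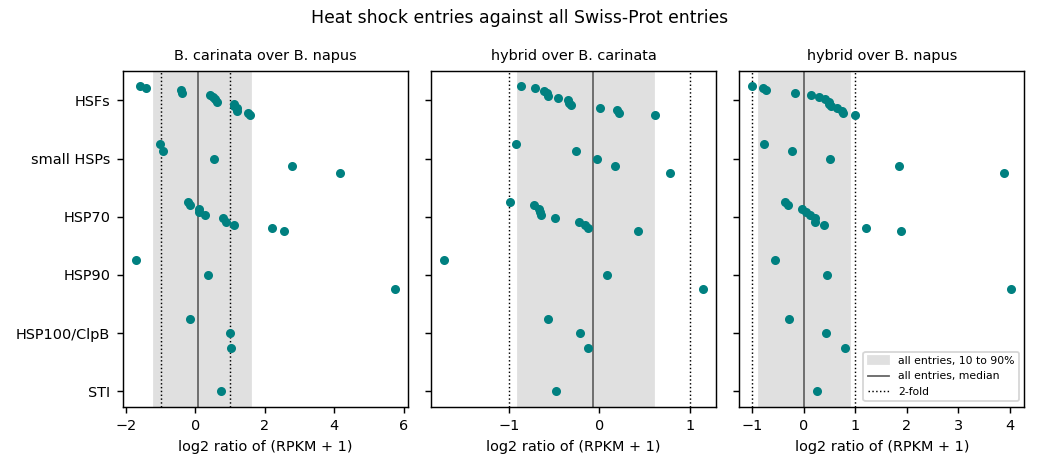
Log2 ratio of (RPKM + 1) for each tested heat shock entry (points, by class) in the 3 comparisons; the grey band spans the 10th to 90th percentile of all Swiss-Prot entries, the solid line is their median, and dotted lines mark 2-fold. HSP90-1, the 14.7 kDa protein and the 18.5 kDa class IV protein lie far to the right in both comparisons over B. napus.

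HSFs as a class had 415 RPKM in B. carinata, 297 in the hybrid and 194 RPKM in B. napus. By reads, B. carinata stood 1.80-fold over B. napus (1.75 to 1.87), the hybrid at 0.756 of B. carinata (0.734 to 0.780) and at 1.36-fold of B. napus. Higher in B. carinata than in B. napus were 6 of the 14 entries that reached 5 RPKM, and 2 were lower. The largest entry of the class was A-4a, in Arabidopsis a factor linked to the response to hydrogen peroxide. It held 5366 reads in B. carinata, 3562 for the hybrid and 1979 in B. napus, or 264, 177 and 87.9 RPKM. Its name is weakly supported. Of its 32 sequences, 25 matched with Swiss-Prot scores of only 61.2 to 173, and the Nr texts of 2 of these 25 name heat shock. The sequences with the most reads were similar in Nr to Arabidopsis lyrata hypothetical proteins, and another to a winged-helix protein of the E2F/DP family. Those 25 carried 5201, 3451 and 1789 reads. The other 7 sequences, with scores of 275 to 622, had 165, 111 and 190 reads, or 5.19, 3.23 and 5.49 RPKM. On those well-matched sequences B. carinata stood at 0.871 of B. napus by reads (0.703 to 1.08), an interval that includes no difference.

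Without A-4a, the other 19 HSF entries had 151, 120 and 106 RPKM in B. carinata, the hybrid and B. napus. Their read ratio of B. carinata over B. napus was 1.28 (1.22 to 1.34). Over the 88 HSF sequences with a score of at least 150, a minimum chosen after seeing the data, it was 1.17 (1.12 to 1.22).

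The A-1 factors start the heat response in Arabidopsis, and all 4 were read in every library. A-1e had 30.0 RPKM in B. carinata and 19.2 in the hybrid, against 13.4 in B. napus. A-1a had 16.2, 9.48 and 6.48 RPKM, and A-1d 15.6, 8.15 and 4.88. These 3 were more than 2-fold higher in B. carinata than in B. napus, with the hybrid between. A-1b had 8.63, 10.2 and 11.6 RPKM and so ran the other way, within 2-fold. The read ratio of B. carinata over B. napus was 1.54 for A-1e (1.36 to 1.75), 2.33 for A-1a (1.99 to 2.73), 1.97 for A-1d (1.69 to 2.30) and 0.738 for A-1b (0.615 to 0.886). Scores matter here too. The 3 A-1a sequences with scores of at least 200 had 3.996 RPKM in B. carinata, 4.21 in the hybrid and 4.19 RPKM in B. napus. The difference in A-1a lay in 2 weaker matches, with 12.2, 5.26 and 2.30 RPKM. The 11 better-matched sequences of A-1e had 11.5, 11.3 and 9.22 RPKM. A-1d differed on its 3 better matches as well, with 10.4, 6.55 and 4.88 RPKM. The 2 better matches of A-1b had 2.32, 3.70 and 5.71 RPKM, and its 5 weaker matches had 6.31, 6.48 and 5.89. On matches with a score of at least 150, A-1b was lower in B. carinata by more than 2-fold, at a log2 ratio of -1.61.

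A-2, which in Arabidopsis is induced by heat and prolongs tolerance, had few reads, with 38 reads in B. carinata, 6 for the hybrid and 2 in B. napus. Read ratios from so few reads are loose: B. carinata stood 19.1-fold over B. napus with an interval from 4.93 to 163. A-3, which acts downstream of DREB2A in Arabidopsis, was lower in B. carinata, with 4.14 RPKM beside 6.88 in the hybrid and 12.7 RPKM in B. napus. Its sequences did not move together. The 2 with scores of at least 200 had 134, 87 and 81 reads, and the 3 weaker matches had 20, 112 and 271. C-1 had 9.40, 5.94 and 3.81 RPKM, and its read ratio of B. carinata over B. napus was 3.76 (2.90 to 4.92). The 4 sequences of C-1 with scores of at least 200 had 68, 53 and 32 reads. Most of its reads lay in 3 weaker matches, with 213, 115 and 43. B-1, a factor that lacks an activating domain, stayed under 5 RPKM with 2.77, 2.71 and 3.78.

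B-4, known in Arabidopsis from root cell layers as SCHIZORIZA, had 17.3 RPKM in B. carinata, 19.9 in the hybrid and 11.4 RPKM in B. napus. A-5, a partner of A-4 factors, had 13.999, 10.9 and 8.68 RPKM. Both differed by less than 2-fold between any libraries. An entry named for A-2a of rice was lower in B. carinata, with 1.17, 2.31 and 5.59 RPKM, and rests on 1 sequence with a score of 57.4. The remaining factor called higher in B. carinata was A-4c, named after its values were seen, with 7.78, 5.41 and 2.85 RPKM. Its 6 sequences with scores of at least 200 had 5.66, 2.94 and 2.85 RPKM. The 1 other sequence, with a score of 100, had 2.11, 2.47 and 0 RPKM.

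Small heat shock proteins, which hold unfolding proteins in solution, were split between entries high in B. carinata and entries high in B. napus. As a class they had 149 RPKM in B. carinata, 134 for the hybrid and 88.2 in B. napus, with a read ratio of B. carinata over B. napus of 1.68 (1.58 to 1.78). Class reads were 2929, 2587 and 1748 in that order, of which the 14.7 kDa protein alone held 1442, 1195 and 87. On the remaining entries together, B. napus was the highest library by reads and by RPKM. Only 5 of 14 entries reached 5 RPKM. Between the parents 2 of the 5 were higher in B. carinata and 1 was lower. The hybrid differed from B. carinata by -0.15 on the log2 scale of the class sum, a sign that TMM scaling turned (0.03).

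The 14.7 kDa protein had 1442 reads in B. carinata and 1195 in the hybrid, against 87 in B. napus, or 73.9, 61.3 and 3.19 RPKM. B. carinata and the hybrid were thus both high and B. napus was low, and the read ratio of B. carinata over B. napus was 16.6 (13.4 to 20.9). The hybrid held 14.3-fold more reads than B. napus (11.5 to 18.0) and 0.861 of those of B. carinata (0.797 to 0.930). All 8 sequences matched with scores of 51.2 to 169, and the Nr text of 1 of them names heat shock. The sequences with the most reads were annotated in Nr as a hypothetical protein of Brassica oleracea. The 6 sequences of this protein left out by the score ratio had 507, 674 and 66 reads.

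The 18.5 kDa class IV protein had 553 reads in B. carinata, 274 for the hybrid and 68 in B. napus, or 25.8, 13.1 and 2.90 RPKM, and its 2 sequences had scores of 263 and 244. One of 741 bases had 412, 170 and 0 reads, and the other of 831 bases had 141, 104 and 68. The longer sequence was thus read in every library, whereas the shorter was not found in B. napus. A sequence of this entry left out by the score ratio, which Nr names as a bromodomain protein, ran the opposite way with 77, 250 and 360 reads. With it the read ratio of B. carinata over B. napus went from 8.16 (6.33 to 10.7) to 1.48 (1.30 to 1.67), and that of the hybrid over B. carinata from 0.515 to 0.864.

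B. napus was the highest library for the other abundant pair. The 17.6 kDa class I protein 2 had 13.6 RPKM in B. carinata, 24.1 for the hybrid and 28.5 in B. napus, and just passed the 2-fold limit between the parents. The 15.4 kDa class V protein had 16.1, 18.3 and 31.9 RPKM and just missed it, at -0.94 on the log2 scale. One of its sequences had 5 reads in B. carinata and 88 in the hybrid, against 243 in B. napus. The 21.7 kDa class VI protein had 8.59, 8.42 and 5.60 RPKM. The other 9 entries, among them those for mitochondria and chloroplasts, stayed under 5 RPKM in every library.

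HSP70 proteins, which bind and release exposed hydrophobic stretches with ATP, had 734 RPKM in B. carinata, 531 in the hybrid and 488 RPKM in B. napus. The read ratio was 1.28 for B. carinata over B. napus (1.26 to 1.30), 0.741 for the hybrid over B. carinata (0.729 to 0.753) and 0.946 for the hybrid over B. napus. Between the parents 3 of 10 entries were higher in B. carinata and 0 were lower. The hybrid differed from B. napus by 0.12 on the log2 scale of summed RPKM. This sign turned in 4 of 14 alternative settings, among them when reads were summed without length (-0.08).

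HSP70-14, of the large HSP110-like type that exchanges nucleotide on other HSP70s, was the most abundant HSP70 entry. It had 231 RPKM in B. carinata, 147 for the hybrid and 134 in B. napus. Its 4 sequences differed in direction. The sequence of 2919 bases had 5879, 2730 and 2291 reads in that order, and that of 1949 bases had 5764, 2603 and 988. The sequence of 2910 bases ran the opposite way with 1294, 2196 and 3852 reads. The sequence of 2887 bases had 3148, 2763 and 3382. The related HSP70-15 had 37.2, 18.2 and 7.28 RPKM, from 4 sequences with scores of 90.1 to 140, some of which Nr names as HSP91, a name of HSP70-14. Reads of these copies can split between entries. HSP70-16, also of this type, had 21.8, 15.2 and 19.98 RPKM.

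The chloroplast HSP70-6 differed little across the libraries, with 124 RPKM in B. carinata and 113 in the hybrid, against 117 in B. napus. Within it, 4 sequences were nearly specific to B. carinata, with 3129 reads there, 1398 in the hybrid and 28 reads in B. napus. The chloroplast HSP70-7 had 29.0, 17.9 and 4.12 RPKM, with a read ratio of B. carinata over B. napus of 15.4 (11.4 to 21.1). All 4 of its sequences had scores of at most 100, and 2 of the 4 Nr texts name heat shock. Of the mitochondrial forms, HSP70-9 had 69.6, 62.1 and 77.4 RPKM and HSP70-10 had 77.3, 48.5 and 41.7. Inside HSP70-10 the sequence of 1652 bases had 1578, 554 and 10 reads and that of 2447 bases had 72, 514 and 1012. The 3 left-out sequences of HSP70-10 had 4058, 4279 and 4313 reads, more than those kept. With them the read ratio of B. carinata over B. napus went from 1.57 (1.49 to 1.66) to 1.17 (1.13 to 1.20). That of the hybrid over B. carinata went from 0.664 to 0.891.

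HSP70-17, an endoplasmic reticulum form, had 100 RPKM in B. carinata, 60.6 for the hybrid and 46.0 in B. napus and was called higher in B. carinata. By reads the ratio was only 1.22 (1.16 to 1.28). Its 5 sequences with scores of at least 200 had 39.2, 26.6 and 39.3 RPKM, so the called difference lay in 7 weaker matches with 61.2, 34.0 and 6.70 RPKM.

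Swiss-Prot lists the main cytosolic and luminal HSP70s of Arabidopsis under Mediator subunit 37, which the name rule did not catch. Together they outweighed the HSP70 entries above, with 92282 reads in B. carinata and 61803 in the hybrid, against 70790 in B. napus. The largest, subunit 37e (HSC70-1), had 919, 718 and 587 RPKM. One entry named subunit 37c stood out with 286 RPKM in B. carinata, 64.1 in the hybrid and 5.39 RPKM in B. napus. In it the parents differed 39.9-fold by reads (33.9 to 47.3). Another entry with the 37c name had 323, 423 and 283 RPKM, and a read ratio between the parents of 1.11 (1.06 to 1.15). Of the luminal BiP proteins, subunits 37a and 37f were lowest in the hybrid, and the scarce 37b was lowest in B. napus, with 5.54, 2.14 and 0.366 RPKM. Subunit 37a had 396 RPKM in B. carinata, 154 for the hybrid and 236 in B. napus, and 37f had 738, 374 and 569.

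**Figure D3:**
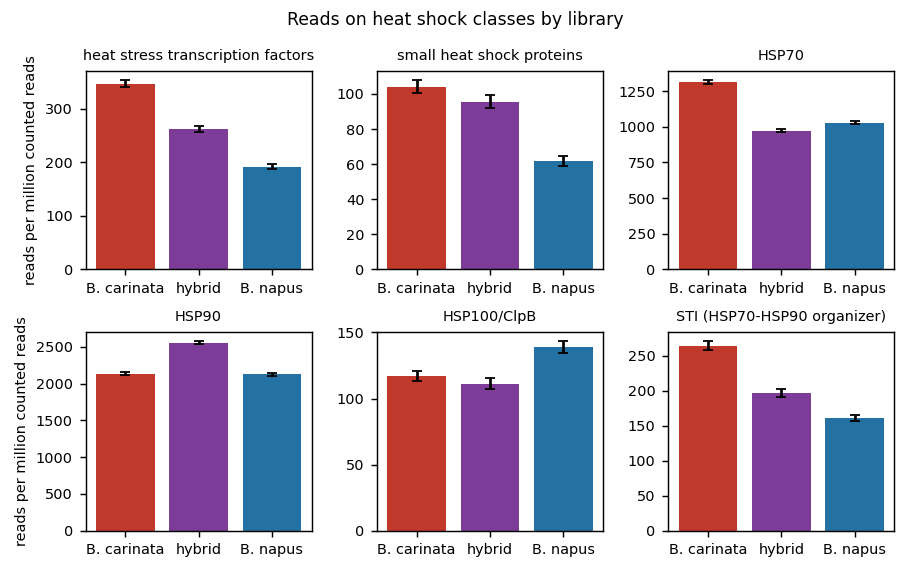
Reads per 1000000 counted reads on each heat shock class in the 3 libraries (bars from 0); error bars are 95% Poisson intervals and cover counting error only. The HSF and STI bars fall from B. carinata through the hybrid to B. napus, the HSP90 bar is highest in the hybrid at 2555, and the ClpB bar is highest in B. napus at 139.

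HSP90, which holds kinases, receptors and HSFs in a form ready to act, was level between the parents by reads and higher in the hybrid. The class had 60129 reads in B. carinata and 69237 in the hybrid, against 60093 in B. napus. The hybrid stood at 1.20-fold over B. carinata (1.18 to 1.21), and at 1.20-fold over B. napus as well. Under median-of-ratios scaling, the log2 ratio of the summed RPKM of hybrid over B. carinata turned from 0.04 to -0.27. HSP90-2 set this class, with 1268 RPKM in B. carinata, 1340 in the hybrid and 980 RPKM in B. napus. Its sequence of 2525 bases had 34515, 41459 and 32192 reads. That of 2616 bases had 14210, 19829 and 24008 reads. A sequence of 602 bases leaned to B. carinata with 7093, 5618 and 1991.

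HSP90-1, in Arabidopsis the heat-inducible cytosolic form, had the largest ratio between the parents among the 36 entries. It had 1198 reads in B. carinata, 335 for the hybrid and 0 in B. napus, or 52.9, 15.4 and 0 RPKM. Set against 3 reads, the limit that a count of 0 allows in the B. napus library, B. carinata was at least 401-fold higher and the hybrid at least 116-fold higher. All 4 sequences, of 1130, 723, 720 and 292 bases, had reads in B. carinata and the hybrid. The hybrid held 0.290 of the reads of B. carinata (0.257 to 0.328), and among the 35 entries with at least 5 RPKM in one of these libraries no other was lower in the hybrid by 2-fold. The absence from B. napus depends on the score ratio: 2 sequences with this Swiss-Prot name that fell under the ratio had 698, 1319 and 1888 reads, and Nr gives 1 as an htpG-type chaperone and the other as a hypothetical protein. With them the read ratio of B. carinata over B. napus was 1.01 (0.945 to 1.07).

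HSP90-4, a constitutive cytosolic form, had 7.26 RPKM in B. carinata and 17.3 in the hybrid, against 26.04 in B. napus. It was the one entry of those 35 that was 2-fold higher in the hybrid than in B. carinata, with a read ratio of 2.24 (1.80 to 2.80). Its 2 sequences had scores of 234 and 161, and cytosolic HSP90 copies are near-identical. HSP83, named for morning glory, had 29, 4 and 0 reads from 1 sequence, while 6 left-out sequences of this name had 3439, 3534 and 3910. With them the read ratio of B. carinata over B. napus was 0.890 (0.850 to 0.932).

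ClpB proteins of the HSP100 class pull proteins out of aggregates. They showed opposite signs by unit between the parents: 97.6, 79.98 and 76.7 RPKM in B. carinata, the hybrid and B. napus, but 3294, 3013 and 3921 reads. The read ratio of B. carinata over B. napus was 0.843 (0.805 to 0.883). On the sequences kept, ClpB1 and ClpB4 were higher in B. carinata by both units, and ClpB3 was lower by both. Chloroplast ClpB3 had 47.5, 43.4 and 52.9 RPKM and 1255, 1498 and 2767 reads. Its 12 sequences with scores of at least 200 had 18.9, 25.4 and 46.7 RPKM, whereas 4 weak matches had 28.6, 18.0 and 6.15. Cytosolic ClpB1, which is HSP101 and needed for acquired heat tolerance in Arabidopsis, had 18.3, 15.6 and 8.45 RPKM. Its read ratio of B. carinata over B. napus was 2.60 (2.23 to 3.04). The direction depends on the score ratio: 11 left-out sequences of this entry, which Nr gives as hypothetical or other uncharacterized proteins, had 421, 503 and 1259 reads, and with them the ratio turned to 0.687 (0.634 to 0.744). Mitochondrial ClpB4 had 31.8, 21.0 and 15.4 RPKM, and its read ratio was 1.57 (1.44 to 1.70). Both ClpB1 and ClpB4 were just past 2-fold between the parents, at log2 ratios of 1.03 and 1.0015.

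STI had 195 RPKM in B. carinata, 139 in the hybrid and 117 RPKM in B. napus from 28 sequences, and by reads B. carinata stood 1.64-fold over B. napus (1.58 to 1.71). Its abundant sequences traded places. That of 2298 bases had 4052, 1774 and 349 reads, and that of 2002 bases had 1315, 2145 and 3082. Taken on the sequence of highest mean level alone, the log2 ratio of B. carinata over B. napus turned from 0.74 to -1.19.

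**Figure D4:**
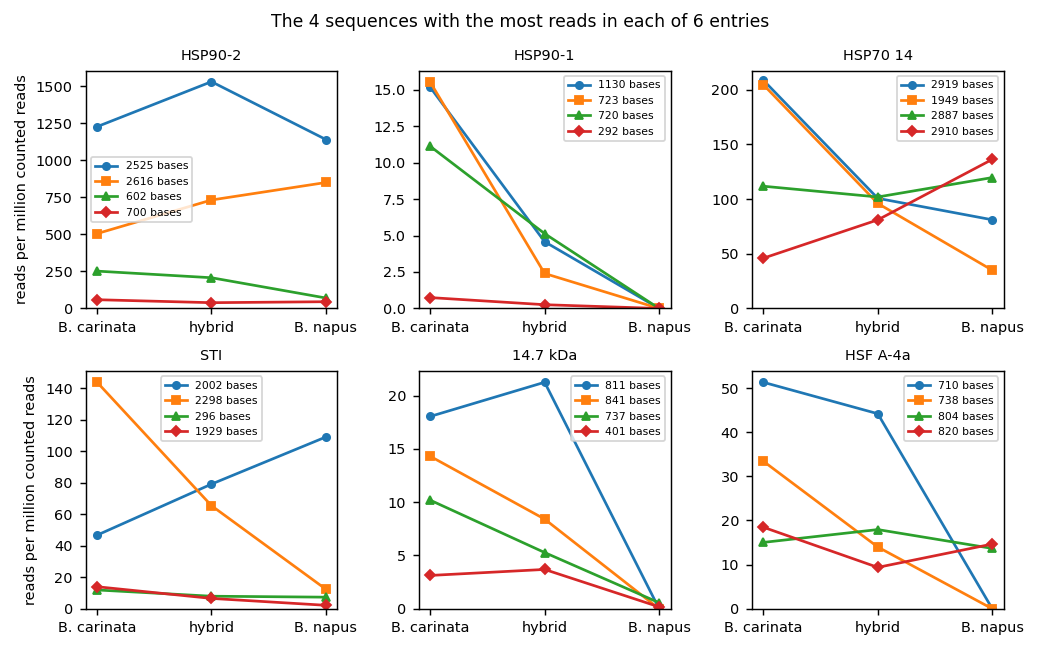
Reads per 1000000 counted reads in the 3 libraries for the 4 sequences with the most reads in each of 6 entries (1 line per sequence, named by its length). In HSP70-14 and STI, lines of sequences high in B. carinata cross that of a sequence high in B. napus. No HSP90-1 sequence kept by the score ratio was read in B. napus.

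Other chaperone and heat response genes were matched by protein name, 58 entries in all. Of the 50 tested between the parents, 6 were higher in B. carinata and 8 were lower, where all entries had 18.3% and 12.8%. The hybrid had 1 of 47 above B. carinata and 2 below, and 2 of 48 above B. napus and 4 below, where all entries had 3.81% and 8.44%, and 8.51% and 8.07%. Among 15 DnaJ co-chaperones tested, which hand clients to HSP70, 2 were higher in B. carinata and 0 were lower. DnaJ 2 had 296 RPKM there, 129 for the hybrid and 44.2 in B. napus. Of 18 chaperonins, the closed folding barrels, 5 were lower and 2 were higher in B. carinata, with a median log2 ratio of -0.36. The Arabidopsis-named 10 kDa chaperonin had 1.31, 71.8 and 114 RPKM, and the one named for B. napus had 366, 320 and 130. FKBP65, a heat-induced partner of HSP90, had 1.69, 1.52 and 55.9 RPKM, while its relative FKBP62 had 36.1, 17.0 and 15.0. BAG regulators of HSP70 had 2 of 8 lower in B. carinata, one of them BAG3 with 22.7, 23.6 and 64.6 RPKM. HSP90 co-chaperones were 3 SGT1 proteins tested, of which SGT1A was higher in B. carinata with 9.75, 6.54 and 3.46. Endoplasmin, the luminal HSP90, had 225, 186 and 363 RPKM. Of the 6 heat response genes, none of the 3 tested differed by 2-fold between the parents. MBF1c, a heat-induced co-activator, had 7.67, 4.84 and 8.49 RPKM, and ascorbate peroxidase 1 had 272, 460 and 366. No GrpE exchange factor was matched.

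The hybrid stood between its parents for 27 of 36 heat shock entries (75.0%), beside 58.5% of all entries. The 4 entries above both parents were HSP90-2, B-4 and, named after their values were seen, B-2a and a petunia HSC70. The 5 entries below both were HSP70-6, HSP70-9, HSP70-16, ClpB3 and A-8, the last also named afterwards. None left the parental range by 2-fold: 0 of 36 were above both parents and 0 below both, where 0.235% and 1.23% of all entries were. Counted by sequence, the hybrid lay between its parents for 82 of 104 member sequences that reached 5 RPKM (78.8%) and for 78.3% of all such sequences.

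Sequences nearly specific to one parent were followed into the hybrid. A sequence was of parental type with at least 20 reads in one parent and a 20-fold higher rate than in the other. For these rates, any count under 3 reads was set to 3. Among members, 40 (11.7%) were of B. carinata type and 9 (2.62%) of B. napus type, where the whole assembly had 9.94% and 5.27%. Every one of these 49 had at least 1 read in the hybrid. Setting low counts to 3 kept out, for example, the 17.6 kDa class I protein 3. The 23 reads of its 1 sequence all came from the B. carinata library, so it was silent in the hybrid. The B. carinata type had 16438 reads in B. carinata and 7351 in the hybrid, a ratio of 0.465 after scaling for depth (0.452 to 0.478). The B. napus type had 1758 reads in B. napus and 870 in the hybrid, a ratio of 0.516 (0.475 to 0.560). Over the whole assembly the ratios were 0.542 and 0.423, and 0.855% and 3.08% of such sequences had no hybrid read. Of the hybrid's heat shock reads, 6.47% (6.33 to 6.61) were on B. carinata type and 0.766% (0.716 to 0.818) on B. napus type sequences. Of all hybrid reads, 16.5% and 7.87% were. HSP90-2 weighs heavily here: it took 60.4% of the hybrid's heat shock reads, and only 0.640% of its own were on B. carinata type sequences. By class, the hybrid share on B. carinata type sequences ran from 1.11% for HSP90 to 39.1% for small heat shock proteins.

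Entries kept different amounts of their B. carinata type reads in the hybrid. The 14.7 kDa protein kept 0.900 (0.819 to 0.988) on 3 sequences, from 971 to 841 reads. These 3 were uneven, with a median ratio of 0.641 and 1 sequence above 1. HSP70-6 kept 0.464 (0.435 to 0.495) and HSP90-1 0.290 (0.255 to 0.327). A-1e kept 0.168 (0.117 to 0.237), from 241 to 39 reads on 2 sequences. These ratios follow from read counts on assembled sequences, and a read of a shared stretch can be counted on either parental copy.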

How the data were processed

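RNA of floral buds was sequenced for 3 libraries, 1 per group. The deposited table gives raw read counts, RPKM and length for each assembled sequence, and the score and name of its best Nr and Swiss-Prot hits, per the file headers. The assembler, the aligner, the counter and the search tool were not given in the sources used here. RPKM was used as deposited by the authors. The deposited scores are the authors' alignment scores.

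RPKM and reads were summed per Swiss-Prot entry and class. Summed RPKM weighs short fragments more than reads do. Counts of entries apart used 2-fold on log2(RPKM + 1) and 5 RPKM. Read ratios have exact conditional binomial 95% intervals, shares Clopper-Pearson intervals. The call rule was run on simulated counts that held counting error only. That run cannot speak to variation between libraries of a group. The members, gene lists and rules were chosen with earlier results of these data known. Named entries were, per class, the 4 of highest mean level, the 4 of largest ratio per comparison, every entry of classes of 6 or fewer, and 8 HSFs of interest. Within entries, sequences with the most reads were named.

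Alternatives changed the pseudocount, scaling, RPKM minimum, summing, sequence selection, score ratio and parental-type limit. A minimum score of 150 and added Mediator 37 entries were chosen after seeing the data. edgeR 4.0.16 (R 4.3.3) gave the TMM factors; other values come from Python 3.11.15 with SciPy 1.17.1 and pandas 2.3.3.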

Additional observations from a re-analysis of the deposited data

How the results depend on the processing

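No paired analysis was possible because each group has 1 library and no replicate numbers, and no library could be left out. Of the 14 entries higher in B. carinata than in B. napus, the count became 8 with a pseudocount of 5 RPKM, 9 with a minimum of 20 RPKM, 7 on sequences of at least 500 bases, 3 on sequences found in all 3 libraries and 5 at a Swiss-Prot score of at least 150 (A-1e, C-1, the 14.7 kDa and 18.5 kDa proteins and HSP90-1). The 4 lower entries became 1, 2, 2 and 8 with a pseudocount of 5, TMM, a minimum of 20 and no minimum. For the hybrid over B. carinata, the 1 higher entry became 0 with a pseudocount of 5, median-of-ratios factors or a minimum of 20, and 3 with no minimum. The 1 lower entry became 2 with a pseudocount of 0.1, a score ratio of 0.8 or sequences of at least 500 bases. It became 6 with median-of-ratios factors, 5 with no minimum, 8 on the sequence of highest mean level, 4 with Mediator 37 entries, and 0 on sequences in all 3 libraries or with no score ratio. For the hybrid over B. napus, the 6 higher entries became 10 with TMM, 2 with a minimum of 20, 1 on sequences in all 3 libraries and 3 at a score of at least 150. The 0 lower entries became 1 with a pseudocount of 0.1 or median-of-ratios factors and 2 with no minimum or no score ratio. No alternative of 14 put an entry outside both parents by 2-fold. The share of hybrid heat shock reads on B. carinata type sequences was 9.13% and 5.73% at 10-fold and 50-fold limits, 6.23% and 6.93% at a score ratio of 0.8 and none, and 6.25% on sequences of at least 500 bases. On B. napus type sequences it was 1.91%, 0.495%, 0.432% and 0.917% for the first 4 of these. Except where the alternative leaves out sequences or entries or changes a limit, the cause was not tested.

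Class log2 ratios of B. carinata over B. napus ranged from 0.07 to 1.82 for HSFs, 0.16 to 1.08 for small heat shock proteins, 0.32 to 1.15 for HSP70, 0.01 to 0.68 for HSP90, -0.34 to 1.99 for ClpB and -1.19 to 1.01 for STI. Those of the hybrid over B. carinata ranged from -0.79 to -0.17, -0.46 to 0.03, -0.77 to -0.28, -0.27 to 0.26, -0.59 to -0.02 and -0.79 to 0.74 in the same order, and over B. napus from -0.09 to 1.51, 0.14 to 1.06, -0.08 to 0.58, 0.26 to 0.91, -0.36 to 1.40 and -0.45 to 0.71. No alternative left out the 14.7 kDa protein, on which the direction of the small heat shock proteins between the parents rests. With 27.1 M to 28.2 M reads a library, a count of 0 allows up to 0.106 to 0.111 reads per 1000000.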
